A study of Mus musculus with 31 samples.

Results

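ChREBP is a glucose-responsive transcription factor encoded by the gene Mlxipl, and it is made as 2 isoforms, ChREBPα and the shorter ChREBPβ. The comparison described here asked how far the liver response to the loss of both isoforms differed from the response to the loss of ChREBPβ alone. No mouse lacked ChREBPα alone. For each gene, the change in total ChREBP-KO mice relative to their WT littermates was reduced by the change in ChREBPβ-deficient mice relative to their own WT littermates. This difference of differences, called the interaction below, is negative where the loss of both isoforms lowered a gene more, or raised it less, than the loss of ChREBPβ. All 31 arrays of the series entered it, and it was computed for 36057 probes of 23968 genes.

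The 31 arrays came from the livers of 31 male C57BL6/J mice, 1 array per mouse. In the β line, the ChREBPβ-specific exon of Mlxipl was deleted by CRISPR/Cas9 editing of embryos, and the line gave 8 ChREBPβ-deficient mice and 8 WT littermates. In the total line, which is Mlxipl-null, there were 7 total ChREBP-KO mice and 8 WT littermates. The labels call the groups ChREBPbeta_KO, ChREBPbeta_WT, ChREBPtotal_KO and ChREBPtotal_WT, and replicate 3 of ChREBPtotal_KO was not analysed here. Both deletions are present in every tissue and from conception, so that changes set off outside the liver can be part of each value. All mice had fasted for 24 hours and had then been refed for 18 hours with food and 20% glucose in the drinking water. The labels do not say which founder line or litter a mouse came from. Adipose tissues were not analysed here.

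ChREBP acts as a partner of MLX. When glucose enters the hepatocyte, its phosphorylated products activate ChREBPα, and the pair binds carbohydrate response elements, which are built from 2 E boxes set a fixed distance apart. The best known targets are enzymes that turn sugar into fat, and the ChREBPβ promoter, from which the second isoform is made, is itself such a target. In refed liver the factor works beside SREBP-1c, which responds to insulin.

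Reference promoters of 4 genes with the largest interactions and of Khk, a known target, are shown here for the E box, the sequence through which ChREBP and MLX bind DNA. The sequences are from RefSeq for the mouse build GRCm38.p6 and cover the 250 bases before the annotated start, or a stretch of 60 bases inside them. Capitals mark a match. The searched words were CACGTG, a single E box, and a pair made of CACGNG and CNCGTG with 5 bases of any kind between them, and both words read the same on the 2 strands. Promoters were found for 8 of the 12 named genes with the largest negative and 9 of the 12 with the largest positive interactions. The first 3 sequences belong to genes with a negative and the last 2 to genes with a positive interaction.
Pklr, chr3:89136373-89136622, plus strand: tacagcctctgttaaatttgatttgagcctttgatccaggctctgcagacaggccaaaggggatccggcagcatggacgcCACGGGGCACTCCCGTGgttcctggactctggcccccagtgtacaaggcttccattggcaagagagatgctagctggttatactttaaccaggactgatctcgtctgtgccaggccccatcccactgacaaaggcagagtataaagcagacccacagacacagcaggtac
Pnpla5, chr15:84123280-84123339, minus strand: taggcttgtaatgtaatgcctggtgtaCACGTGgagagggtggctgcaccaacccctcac
Khk, chr5:30921461-30921520, plus strand: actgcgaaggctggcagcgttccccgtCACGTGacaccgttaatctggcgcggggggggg
Tmeff2, chr1:50927447-50927506, plus strand: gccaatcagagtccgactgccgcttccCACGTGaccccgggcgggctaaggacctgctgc
Klf6, chr13:5861419-5861478, plus strand: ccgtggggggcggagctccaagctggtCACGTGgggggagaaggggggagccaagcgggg

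The paired word was found in the Pklr promoter, 170 to 154 bases before the start, and in 12 genes (0.0444%) of the 27025 with a promoter. The single E box was present in 6.86% of all genes. It was found in 2 of the 8 genes with the largest negative interactions, Pnpla5 and Plcxd1, and in 3 of the 9 with the largest positive ones, Klf6, Tmeff2 and Tuba8. Of 18 matched members of a list of known ChREBP targets, Khk, Arrdc4 and Fgf21 held it. These matches describe letters in a window and were not tested as binding sites, and both signs of interaction had them.

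Between 34131 and 38612 spots per array passed the study's quality filter, no spot was saturated, and correlations between arrays lay between 0.981 and 0.999. Replicate 4 of the total ChREBP-KO mice had a median background of 33 in scanner units, against 15 to 21 on the other arrays, and the fewest spots that passed, and without it 2108 genes were positive and 2182 negative in the interaction, against 2264 and 2283 with all arrays, counted by any probe. Hepatocyte markers such as Alb and Apoa1 were at similar summed levels in all 4 groups, with group medians of 20.52 to 20.57 on the log2 scale over a list of 10 markers. Of 70 markers of hepatocytes and of other cells the liver sample could hold, only Asgr1 was called in the interaction (-0.38, adjusted p = 0.00082), and 8 had an unadjusted p under 0.05. Summed adipocyte markers read 16.28 to 17.03 in total-line WT and 17.27 to 17.65 in total ChREBP-KO mice, while their scores overlapped. Summed red blood cell markers had medians of 16.08 in β-line and 17.04 in total-line WT mice, and 3 of the 5 markers differed between these WT groups. Replicates 2, 7 and 8 of the total-line WT littermates carried RNA of pancreatic enzymes, and replicates 1, 4 and 5 of the total ChREBP-KO mice stood above the other mice in stellate or bile duct cell markers, with a stellate score of up to 0.89 in replicate 1 and a bile duct score of up to 1.71 in replicate 5. Arrays were scanned on 2 days, 15 and 16 arrays, with all groups on each day. In bulk liver, fewer cells of a type and less RNA per cell cannot be told apart.

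Mlxipl, the gene edited in both lines, was lower in each of them and lowest in total ChREBP-KO mice. Its brightest probe, at chr5:135613705-135613764 on build mm9, read 14.86 to 15.32 (median 15.08) on the log2 scale in WT littermates of the β line and 14.38 to 14.80 (median 14.61) in ChREBPβ-deficient mice. In the total line it read 15.11 to 15.55 (median 15.24) in WT littermates and 13.90 to 14.28 (median 14.13) in total ChREBP-KO mice. Within each line the knockouts and their littermates did not overlap, and the total ChREBP-KO mice lay below all 24 other mice. The fall was 2.2-fold in the total line (-1.14, adjusted p = 3.22e-12) and -0.48 in the β line (adjusted p = 0.0116), where it was the only gene called. The interaction was -0.65 (SE 0.11, adjusted p = 6.2e-05), -0.96 on the first scan day (adjusted p = 0.00466) and -0.36 on the second (adjusted p = 0.115). Of the other 2 probes, 1 fell in both lines (-0.59 and -0.46, interaction -0.13) and shares a 20-base word with 9 other probes of the array, and 1 did not pass the test in either line (-0.04 and -0.06). The place of these probes relative to the deleted exons was not analysed here, so the remaining signal gives no measure of remaining ChREBP.

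Across the liver transcriptome, most of the interaction followed the total line. By its brightest probe, the interaction was called in 3797 genes, of which 1844 (7.69% of all genes) were positive and 1953 (8.15%) negative. Counting a gene when any of its probes was called gave 2264 positive and 2283 negative genes, 34 of them in both counts. Within the first scan day alone the counts by any probe were 543 and 773, and within the second 656 and 1011. The negative interactions reached further. At least 2-fold interactions numbered 268 negative and 178 positive, at least 4-fold 70 and 11, and at least 16-fold 10 and 0. The median size of a called interaction was 0.47 on the log2 scale, and the median SE over all genes was 0.113.

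The 2 changes behind the interaction were of unequal size. In the total line 3550 genes (14.8%) rose and 3490 (14.6%) fell, whereas in the β line 1 gene (0.00417%), Mlxipl, passed the test, the next smallest adjusted p was 0.182, and 1176 genes (4.91%) had an unadjusted p under 0.05, 532 of them higher and 644 lower. Of the 7040 genes called in the total line, the interaction was also called in 3652, which are termed separable here, and was not in 3388 (48.1%), termed not separable. The median total-line change was 0.44 in separable and 0.27 in not separable genes, and the median β-line change was 0.058 and 0.050. Another 145 genes were called in the interaction without a call in the total line, and in these the changes of the lines had opposite signs. For 3332 separable genes (91.2%) the 95% interval of the β-line change lay wholly below 50% of the total-line change, and for 1438 (39.4%) below 25%. The choice of genes with a called interaction favours such intervals. Both counts also take the total-line change as known and leave out its error, so they are descriptions and no separate test.

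**Figure D1:**
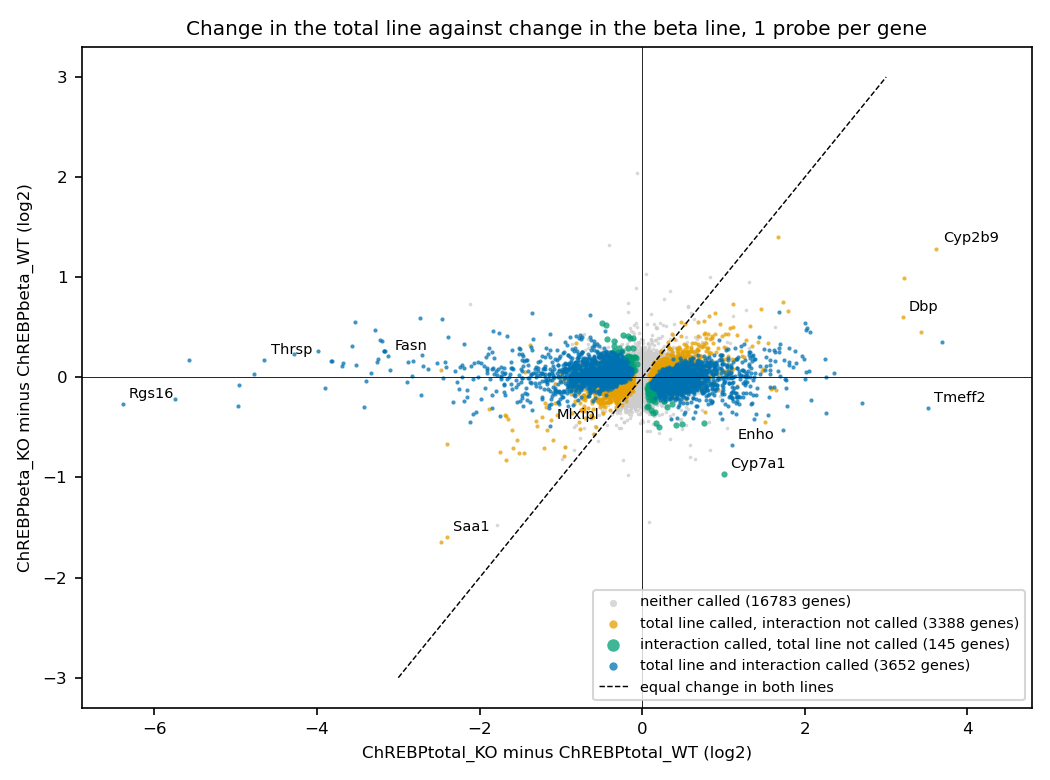
Change in total ChREBP-KO mice (horizontal axis, log2) against the change in ChREBPβ-deficient mice (vertical axis, log2), each relative to its own WT littermates, 1 dot per gene, coloured by which tests were passed, with a dashed line for equal change. Blue dots (3652 genes, total line and interaction called) spread along the horizontal axis to beyond -6 at Rgs16, and orange dots (3388 genes, interaction not called) lie close to the origin except for a few such as Cyp2b9, Dbp and Saa1.

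Each line was compared with its own littermates, and these littermates differed from each other. WT littermates of the total line and of the β line differed in 4114 genes (17.2%) at an adjusted p under the threshold. An interaction is the gap between the knockouts of the lines less the gap between their WT littermates, and in 849 of the called genes (22.4%) the WT gap was the larger, with a WT call in 735 of them. Among interactions of at least 2-fold this was so in 67 of 446. Without any WT call there were 2683 called interactions, 1292 positive and 1391 negative. What set the WT groups apart was not tested, and the labels name no colony or litter.

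The largest negative interactions fell on a signalling regulator, transport proteins and enzymes of fat synthesis. Rgs16, a regulator of G protein signalling, read 11.54 to 15.29 (median 14.23) in WT littermates of the β line, 11.22 to 14.65 (median 14.24) in ChREBPβ-deficient mice, 12.36 to 15.50 (median 14.39) in WT littermates of the total line and 6.07 to 9.41 (median 8.02) in total ChREBP-KO mice, probe at chr1:155592497-155592556 on mm9. All 7 total ChREBP-KO mice lay below every other mouse, by more than 1 log2 unit. The fall was 83.8-fold in the total line, the β-line change was -0.27 with a 95% interval from -1.35 to 0.81, and the interaction was -6.12 (SE 0.76, adjusted p = 1.27e-06). Rgs16 was thus the widest difference between the lines, and its spread among refed mice that kept ChREBPα was wide as well.

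By the same rule (all total ChREBP-KO mice below the other 24) came the following genes, where a bracketed value without another name is the interaction on the log2 scale, here and below. They were Thrsp, the lipogenic Spot 14 protein (-4.82, 25-fold lower in the total line), Pnpla5 of the patatin-like lipase family (-5.53), the plasma membrane calcium pump Atp2b2 (-4.88), the cation channel Hcn3 (-4.51), the liver pyruvate kinase Pklr (-4.26), acetyl-CoA carboxylase β Acacb (-3.99), the zinc finger factor Klf10 (-3.99), the phospholipase-domain gene Plcxd1 (-3.88) the predicted genes Gm35986 (-5.75) and Gm30692 (-4.68), and a probe of unknown target. Each named gene had a β-line change with an unadjusted p above 0.05. Pklr read 9.30 to 10.76 (median 10.23) and 9.14 to 10.98 (median 10.49) in WT and ChREBPβ-deficient mice of the β line, and 9.23 to 11.24 (median 10.65) and 6.13 to 6.74 (median 6.51) in WT and total ChREBP-KO mice. The 3 groups that kept ChREBPα overlapped and the total ChREBP-KO mice stood apart. Pnpla5 was well above background in 3 of 7 and Gm30692 in 5 of 7 total ChREBP-KO mice, so that their falls are less exactly known. In the WT littermates, Atp2b2 (2.15), Plcxd1 (1.26) and Klf10 (0.95) were higher in the total line than in the β line, and that gap is part of their interactions. In all, every total ChREBP-KO mouse lay below all other mice in 510 genes (2.13%) and above them in 273 (1.14%). The interaction was called in 499 of those below and 262 of those above. Of these called genes, 8 below and 1 above were not well above background on any array of at least 1 group.

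**Figure D2:**
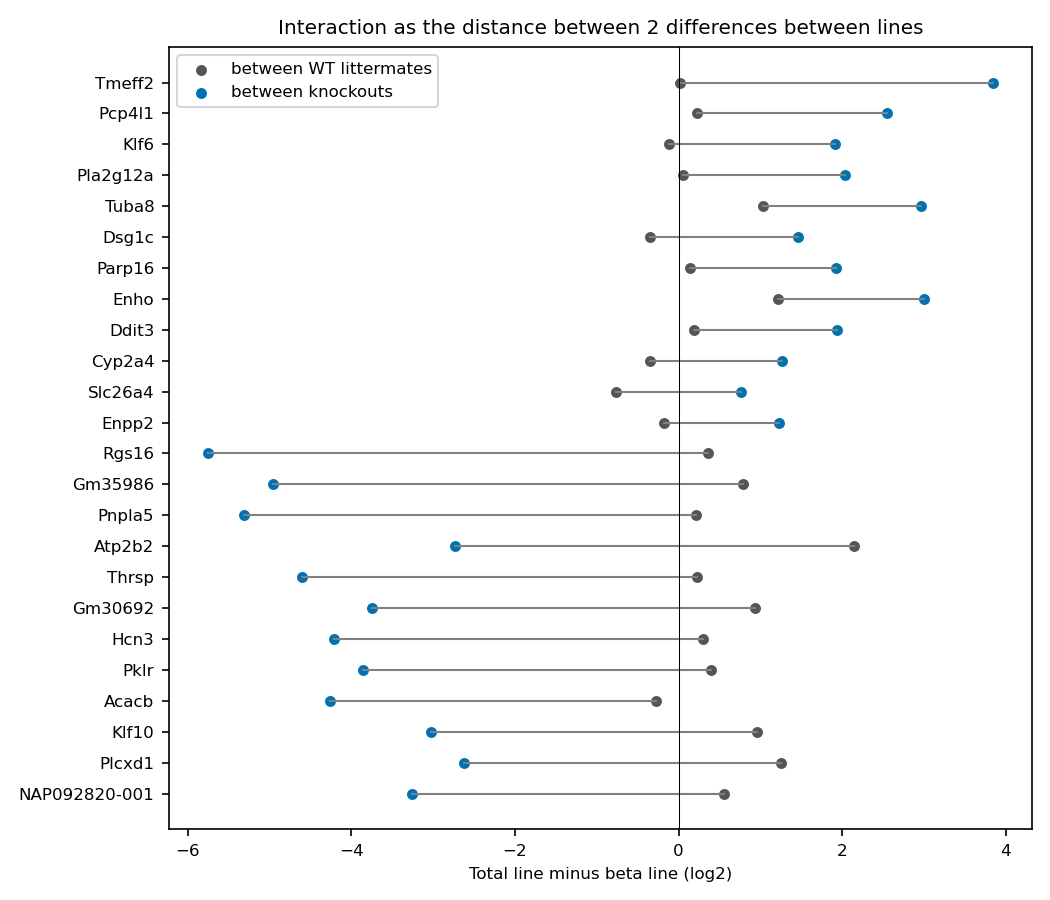
For the 12 named genes with the largest positive and the 12 with the largest negative interactions, the total line minus the β line on the log2 scale, between WT littermates (grey) and between knockouts (blue), so that the distance between the dots is the interaction. The grey dot of Rgs16 is at 0.36 and that of Atp2b2, the highest, at 2.15, with their knockouts at -5.75 and -2.74.

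The known ChREBP targets were the group in which the lines differed most. In a list of 23 direct targets, the interaction was negative in 20 and positive in 0 (0 positive at an unadjusted p under 0.05 in limma), with a median of -3.04 against 0.019 over all genes. On the first and second scan day alone 17 and 19 were negative. Beside the genes above it took in Tkfc, the triokinase of fructose breakdown (-3.04), Mid1ip1, the partner of Thrsp that activates acetyl-CoA carboxylase (-2.22), Me1, the cytosolic malic enzyme (-3.44), Pnpla3, a lipid droplet protein (-3.79), and Txnip, the glucose-induced arrestin (-1.28, adjusted p = 0.00416). Tm6sf2, which loads VLDL with lipid, fell in the total line (-0.56) with an interaction that was not called (adjusted p = 0.117). Arrdc4 and Fgf21, a fasting and sugar hormone, were not called either, with an interaction of -0.29 (adjusted p = 0.335) and -0.65 (adjusted p = 0.72). The target list was compiled with the earlier results known, and such genes are what a ChREBP null liver is known for.

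Most genes of de novo lipogenesis were separable. Of 12 genes from acetyl-CoA to palmitate, 9 had a negative and 0 a positive interaction (0 positive at an unadjusted p under 0.05), with a median of -2.14. The interaction was not called in the other 3, of which 1 fell in the total line. Fasn, the fatty acid synthase, read 17.0 to 18.23 (median 17.34) in WT and 16.93 to 18.21 (median 17.67) in ChREBPβ-deficient mice of the β line, 17.25 to 18.30 (median 17.75) in WT and 14.01 to 15.14 (median 14.78) in total ChREBP-KO mice. The interaction was -3.33 (SE 0.26, adjusted p = 5.38e-10), and the 95% interval of the β-line change ran from -0.16 to 0.58, so that a fall of the size seen in the total line was far outside it. Acly (-2.92) and Acss2 (-1.25), which supply acetyl-CoA, and Acaca (-2.02), which makes the malonyl-CoA for Fasn, followed. Downstream of palmitate the elongases Elovl6 (-3.80) and Elovl5 (-2.18) and the desaturases Scd1 (-3.59) and Scd3 (-3.76) were negative, with 5 of 18 list members negative and 2 positive. Elovl3 (-1.59, adjusted p = 0.0451) was called in 9 of the 31 fits that each left out 1 array. Not separable in this list were Fads3, Elovl7 and Tecr, with total-line changes of 0.77, 0.78 and -0.21.

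Triglyceride synthesis and the lipid droplet were split. Of 30 genes, 11 were negative, 1 was positive and the median was -0.32, and within scan days 7 and 11 were negative. The list median was -0.19 in the total line and 0.10 in the β line, where all genes had -0.0053. With an unadjusted limma p below 0.05 as the limit, 7 members rose in the β line and 0 fell. None of these 7 passed the adjusted test. Values of both lines enter the list's interaction median, and a β-line effect on the list was not tested. The negative genes covered the glycerol backbone, with Gpd2 (-2.22) and Gpd1 (-0.74), the first acylation, with Gpam (-1.75) and Agpat2 (-1.02), and the phosphatase Lpin1 (-3.43). The droplet coat genes Plin2 (-0.87) and Plin5 (-0.90) were also negative. Lpin2, Mogat1 and Fitm1 rose in the total line (0.75, 0.82 and 1.16) and were not separable from the β line, where they read 0.31, 0.62 and 0.43. For VLDL assembly and clearance the counts were 2 positive and 2 negative of 22 (9.09% each). This is near the shares over all genes, which were 7.69% and 8.15%. The calls included the VLDL receptor Vldlr (1.03) and the lipid transfer protein Mttp (-0.42).

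Sugar handling changed at its entry and exit points. Of 20 genes for glucose entry, phosphorylation and release, 7 had a negative and 1 a positive interaction, and on each scan day alone 6 were negative. Slc2a2, the GLUT2 transporter, read 11.60 to 12.26 (median 12.10) in WT and 11.28 to 12.50 (median 12.23) in ChREBPβ-deficient mice, and 11.04 to 12.30 (median 12.06) in WT and 7.50 to 10.34 (median 9.12) in total ChREBP-KO mice. Its interaction was -2.98 (SE 0.35, adjusted p = 5.25e-07), with no overlap between the total ChREBP-KO mice and the others. The glucose-6-phosphatase system moved with it, in the catalytic subunit G6pc (-4.81) and its transporter Slc37a4 (-2.17), and so did Fbp1 of gluconeogenesis (-1.34) and the regulatory protein Gckr (-0.77). In the fructose list of 9 genes Khk (-1.96) and Tkfc were among the 3 negative ones, and Akr1b3 (0.65) and Sord (0.48), the enzymes of the polyol pathway that makes fructose from glucose, were positive. The fructose transporter Slc2a5 was lower in the total line (-0.67) and not separable.

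Glycolysis with pyruvate fate, the pentose phosphate pathway and glycogen metabolism had more negative than positive interactions as well. The list of glycolysis and pyruvate fate had 7 negative (31.8%) and 1 positive (4.55%) genes of 22, against 8.15% and 7.69% of all genes. Among them were the pyruvate dehydrogenase kinase Pdk1 (-2.12), the glucose-6-phosphate isomerase Gpi1 (-1.73), the dehydrogenase subunit Pdhb (-1.58) and Eno1 (-0.92). On the first scan day 6 were negative and on the second 6. In the pentose phosphate pathway 5 of 10 were negative, 2 and 3 within scan days, led by Rpia (-2.03), Pgd (-1.86) and Tkt (-0.93). Its entry enzyme G6pdx was lower in the total line (-0.72) and not separable. Glycogen genes counted 6 negative and 2 positive of 16, with the phosphorylase Pygl (-1.29), the branching enzyme Gbe1 (-0.90) and the synthase Gys2 (-0.63) negative. The negative count fell to 1 with the slide of each array as a block and to 1 and 3 within scan days.

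The calls among SREBP regulators were negative, and those of cholesterol synthesis were of both signs. Srebf1, which encodes SREBP-1, had an interaction of -1.03, Insig2, which retains SREBP in the endoplasmic reticulum, -1.22, and its escort Scap -0.30, the 3 calls of 12 genes, of which 0 and 1 were negative within the scan days. In the SREBP list 25% were thus negative, and over all genes 7.69% were positive and 8.15% negative. Cholesterol synthesis had 3 positive and 3 negative interactions of 19 (15.8% each), with Msmo1 (0.83) positive and Dhcr7 (-0.74) and Sc5d (-0.56) negative. Idi1 (0.75) and Pmvk (-0.77) were called in 7 and 25 of the 31 fits that each left out 1 array, and the positive count ranged from 2 without total ChREBP-KO replicate 1 to 6 without total ChREBP-KO replicate 5. The list rose in the total line in 9 genes, 6 of them not separable, against a rise in 14.8% of all genes. In 12 of the 19 genes the WT littermates of the lines differed, with a list median of -0.48, and within scan days 0 and 0 were positive and 0 and 3 negative (limma, adjusted p).

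Bile acid enzymes moved in opposite directions. Of 27 genes of bile acid synthesis and transport 5 (18.5%) were positive and 1 (3.70%) was negative, against 7.69% and 8.15% of all genes. Cyp8b1, the sterol 12α-hydroxylase that sets the kind of bile acid, was negative (-2.12, adjusted p = 5.36e-05). Cyp7a1, the rate-limiting enzyme of bile acid synthesis, was positive (1.98, adjusted p = 0.0244), from a change of 1.01 in the total line (adjusted p = 0.0841) and -0.97 in the β line (unadjusted p = 0.0292). The Cyp7a1 interaction was 3.05 on the first and 0.77 on the second scan day. The β-line WT mice were apart by number, with Cyp7a1 at 8.44 to 10.24 in replicates 1 to 4 and 6.14 to 7.74 in replicates 5 to 8. The exporters Abcc3 (0.91) and Abcc2 (0.56) and the uptake carrier Slco1b2 (0.65) were positive as well, and 9 genes of the list changed in the total line without being separable.

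**Figure D3:**
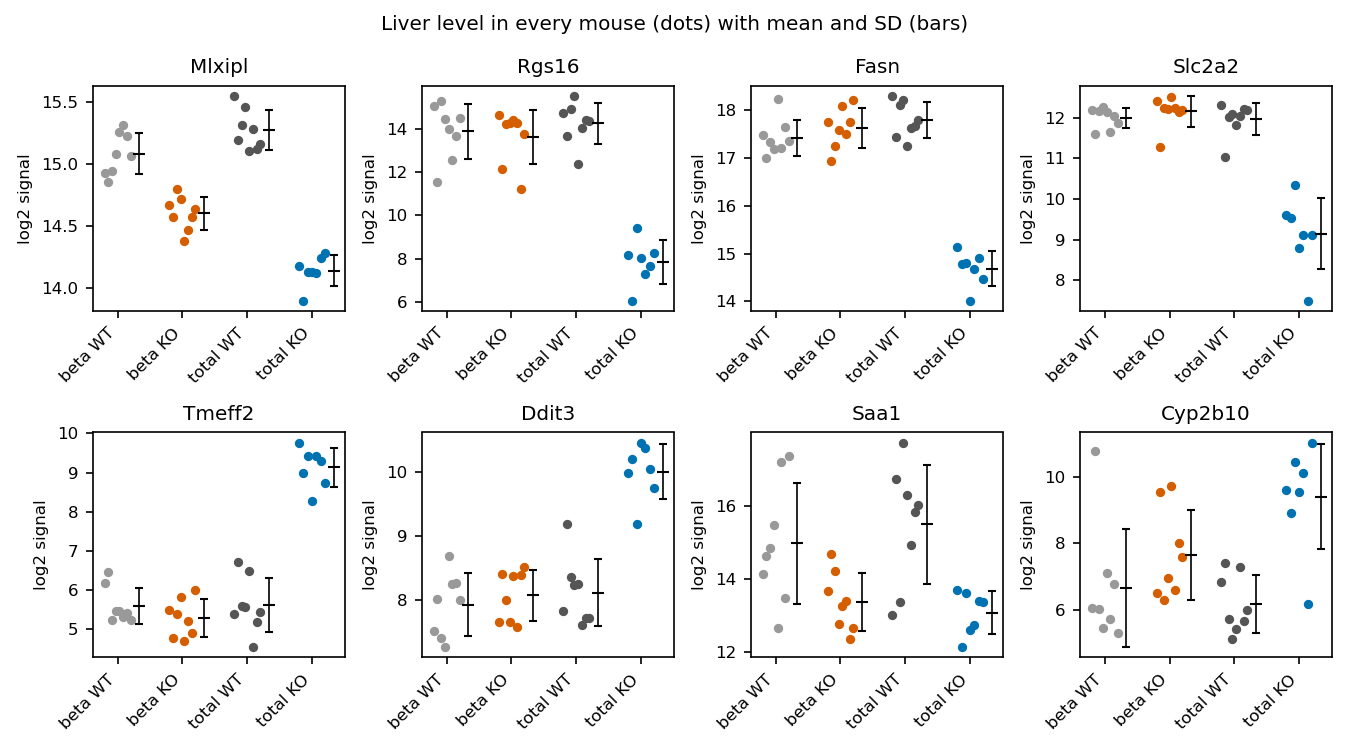
Log2 signal of 8 genes in every mouse (dots), with mean and SD (bars), for WT and knockout mice of the β line and of the total line. In Rgs16, Fasn and Slc2a2 the 7 total ChREBP-KO mice lie below, and in Tmeff2 above, all 24 other mice, whereas in Saa1 both knockouts spread below the middle of their WT littermates.

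The largest positive interactions fell on a membrane protein, transcription factors, secreted proteins and transporters. Tmeff2, a transmembrane protein with EGF-like and follistatin-like domains, read 5.23 to 6.45 (median 5.44) in WT and 4.71 to 6.0 (median 5.30) in ChREBPβ-deficient mice, 4.54 to 6.73 (median 5.50) in WT and 8.27 to 9.76 (median 9.31) in total ChREBP-KO mice, probe at chr1:51238653-51238712 on mm9. The knockouts of the total line were 11.4-fold above their littermates and above all other mice, with an interaction of 3.82 (SE 0.37, adjusted p = 2.01e-08). Its probe was well above background in 7 of 8 WT littermates of the total line and in all mice of the other groups, and since these lower levels are near background the fold is less exactly known. The rule further named Pcp4l1 (2.32), the zinc finger factor Klf6 (2.03), the secreted phospholipase Pla2g12a (1.99), the tubulin Tuba8 (1.93), the desmoglein Dsg1c (1.81), Parp16, a tail-anchored enzyme of the endoplasmic reticulum (1.79), Ddit3 (1.75), Cyp2a4 (1.61), the anion exchanger Slc26a4 (1.53) and Enpp2, which encodes autotaxin (1.41). Enho, the gene of the secreted peptide adropin, had an interaction of 1.78, with a change of -0.68 in the β line (unadjusted p = 0.00413). The WT littermates of the total line were already 1.22 above those of the β line, and the knockouts 3.0. Slc26a4 moved the same way in both lines, by 2.03 and 0.50 (unadjusted p = 1.51e-05), although the total-line change was far larger. Of the 24 genes of both signs, all kept their sign on each scan day, and 21 were called on the first day and 23 on the second. Enho, Ddit3 and Tuba8 were the ones not called on the first day (adjusted p = 0.197, 0.156 and 0.135) and Cyp2a4 the one not called on the second (0.18).

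Genes of fatty acid oxidation leaned upward. Of 23 mitochondrial β-oxidation genes, 10 (43.5%) were positive and 1 (4.35%) negative, against 7.69% and 8.15% of all genes. The median was 0.23, and 17 rose in the total line, where 14.8% of all genes rose. Positive genes were the carnitine shuttle members Cpt1a (0.95) and Slc25a20 (0.52), the activating enzyme Acsl1 (0.52) and the dehydrogenase Acadm (0.28), and the negative gene was Acsl5 (-1.13), an acyl-CoA synthetase placed in lipid synthesis as well. The Cpt1a value includes a gap of -0.90 between the WT littermates of the lines. Among 24 PPARα targets 9 were positive and 1 negative, with a median of 0.45, led by the ω-hydroxylases Cyp4a10 (1.18) and Cyp4a31 (1.02) and by Ehhadh of the peroxisome (0.96). The receptor Ppara itself was positive (0.73), again beside a WT gap of -0.69. Both lists depended on the scan day, with 7 and 0 β-oxidation genes and 6 and 2 PPARα targets positive on the first and second day, and with medians of 0.81 and 0.043 for the targets. Without replicates 1, 4 and 5 of the total ChREBP-KO mice, a setting chosen after seeing the data, 5 and 6 were positive.

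Ketone body genes and peroxisomal genes had calls of both signs. In the ketone list of 7 genes Oxct1, which uses ketone bodies, was positive (0.97), and the transporter Slc16a1 negative (-1.09), a share of 14.3% each. Of 35 peroxisomal genes 4 (11.4%) were positive and 1 was negative, against 7.69% and 8.15% of all genes. In the total line 12 of them rose, 8 without being separable. Of all genes 14.8% rose in that line.

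Mitochondrial respiratory chain genes showed many small positive interactions. Of 58 subunits 24 were positive, at a median of 0.16 for the list, and 1 was negative, Ndufa8 (-0.71). Examples were Ndufb9 (0.25), Cox4i1 (0.25), Cox6b1 (0.34) and Atp5o (0.23). The total line was higher in 40 subunits, against 14.8% of all genes, and 16 of these subunits were not separable. These sizes were close to the smallest called interaction over all genes, which was 0.14. The positive count was 8 when arrays were scaled to their 75th percentile, 14 with the slide as a block, 14 without the 3 knockout arrays named above, and 0 and 1 within scan days. Cytosolic ribosomal proteins gave 9 positive (14.1%, against 7.69% of all genes) and 0 negative calls of 64 (0 negative at an unadjusted p under 0.05), and 1 positive call under that scaling. Their median change was 0.030 in the total line and -0.053 in the β line. In the β line 8 were lower and 0 higher at an unadjusted p under 0.05 (limma), and none of these 8 passed the adjusted test. Whether the β line had a part in these interactions was not tested.

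**Figure D4:**
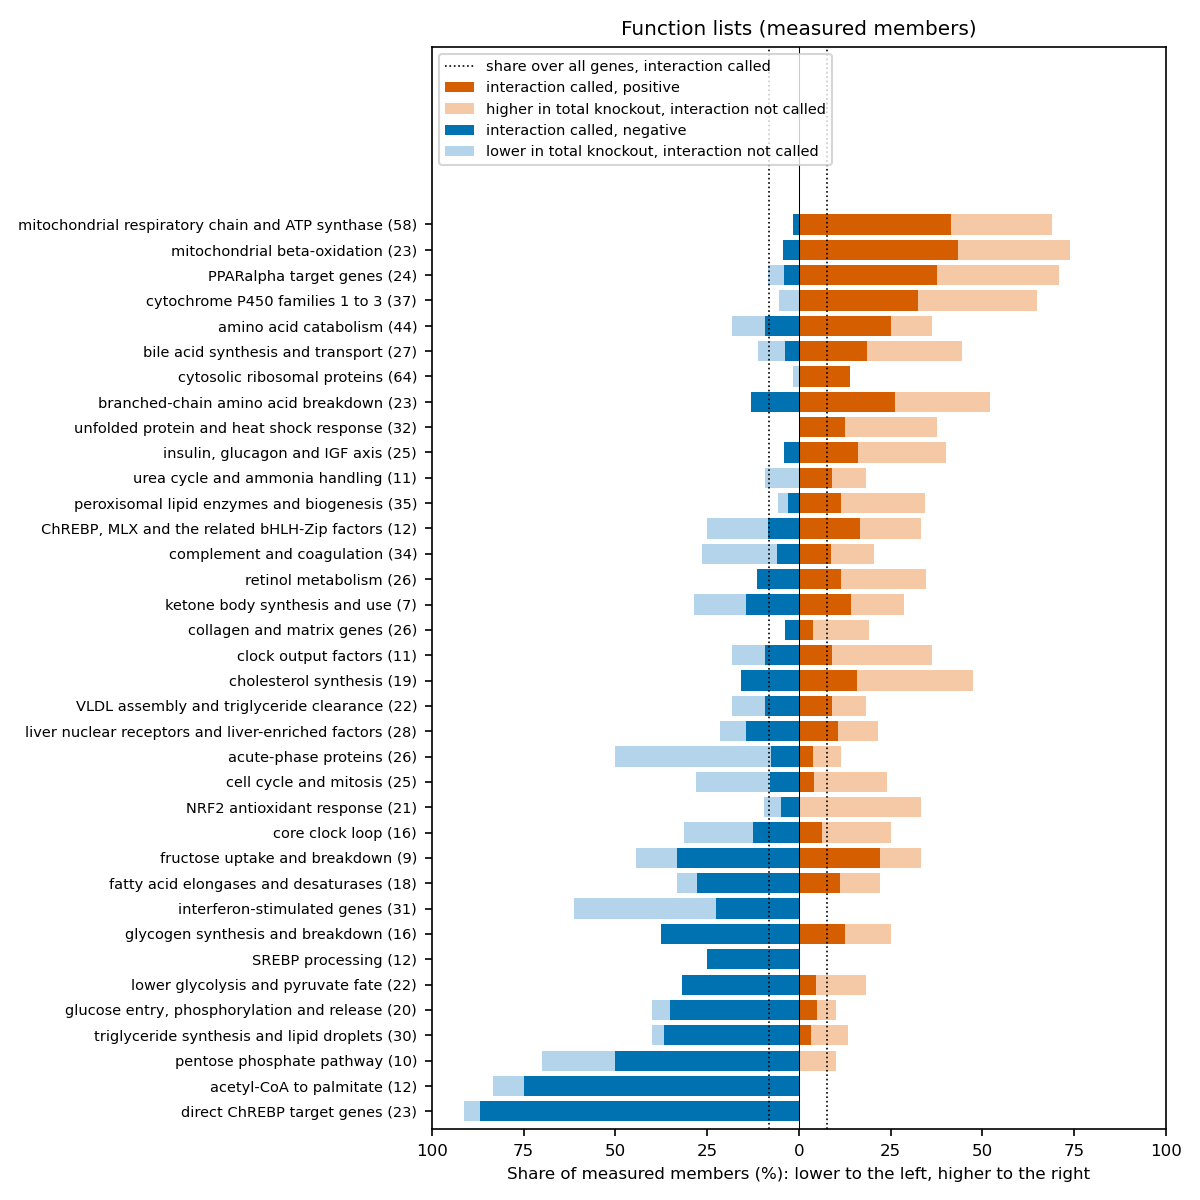
Share of the measured members of each function list (number in brackets) with a called interaction (dark) or a total-line change that was not separable (light), positive or higher to the right and negative or lower to the left, in percent, with dotted lines for the share of called interactions over all genes. The ChREBP target and palmitate lists extend furthest to the left, and the β-oxidation and PPARα target lists furthest to the right.

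Drug-metabolising cytochrome P450 genes were raised in part separably. Of 37 genes of families 1 to 3, 12 were positive and 0 negative (2 negative at an unadjusted p under 0.05), with a median of 0.37, and on the scan days 8 and 3 were positive. The 2a members Cyp2a4 (1.61), Cyp2a5 (1.39) and Cyp2a22 (1.19), the caffeine oxidase Cyp1a2 (1.43) and the ethanol oxidase Cyp2e1 (0.55) were among the positive genes. Near-identical members such as Cyp2a4 and Cyp2a5 can share probe signal. The total line was higher in 24 of the list, against 14.8% of all genes, and 14 changes of either sign were not separable. The receptor Nr1i3, known as CAR, which drives several of these genes, had a positive interaction (0.98). For retinol metabolism the counts were 3 and 3 of 26 (11.5% each, against 7.69% and 8.15% of all genes). The dehydrogenases Rdh9 (1.57) and Adh4 (1.06) were positive and the β-carotene cleaving enzyme Bco1 (-0.69) negative.

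Amino acid breakdown had calls of both signs. In a list of 44 catabolic genes 11 (25%) were positive and 4 (9.09%) negative, against 7.69% and 8.15% of all genes. The negative share was thus near that of all genes. When 1 array was left out, the positive count ranged from 7 without total-line WT replicate 1 to 13 without total-line WT replicate 2. It was 2 and 5 within scan days. The negative count ranged from 3 without β-line WT replicate 4 to 8 without total ChREBP-KO replicate 7, and was 1 without the 3 knockout arrays with raised stellate or bile duct markers. The tryptophan oxygenase Tdo2 (0.90), the cystathionine lyase Cth (0.91), and the aminotransferase Gpt (0.60) were positive. The cytosolic aspartate aminotransferase Got1 (-0.87) and Haao of tryptophan breakdown (-0.56) were negative. Of 23 genes of branched-chain amino acid breakdown 6 were positive, such as Ivd (0.65) and Dbt (0.56), and 3 were negative, including Bckdk, the kinase that inhibits the pathway (-0.50). In the urea cycle list 1 of 11 (9.09%) was called, Nags (0.40), which makes the activator of the cycle, against 7.69% positive over all genes. Nags kept the call in 17 of the 31 fits that each left out 1 array. Cps1, the entry enzyme, rose in the total line (0.46) and was not separable, although 9 of those fits called it.

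Stress genes rose in the total line, and some were separable. Over all genes 14.8% were higher and 14.6% lower in the total line. Of 32 genes of the unfolded protein and heat shock response, 12 were higher in the total line and 4 had a positive interaction. These 4 were Ddit3, Atf3 (1.69), Herpud1 (1.08) and Atf6 (0.30, called in 11 of the 31 fits that each left out 1 array). Ddit3, which encodes the stress factor CHOP, read 7.26 to 8.69 (median 8.01) in WT and 7.57 to 8.52 (median 8.18) in ChREBPβ-deficient mice, 7.61 to 9.19 (median 8.02) in WT and 9.20 to 10.46 (median 10.06) in total ChREBP-KO mice. The total ChREBP-KO mice lay above all others, the lowest of them next to the highest WT mouse of its line. The positive share of 12.5% stood against 7.69% of all genes, and the count ranged from 3 without total ChREBP-KO replicate 5 to 9 without total-line WT replicate 2. Asns, a target of the amino acid response, rose by 1.51 in the total line with -0.44 in the β line and an interaction adjusted p of 0.0508 that passed in 10 of those fits, and the chaperone Hspa5 rose by 0.41 and was not separable. In the NRF2 list 7 of 21 genes rose in the total line, among them Nqo1 (0.50) and Gclc (0.45), and only Srxn1, which was negative (-0.95), was separable, in 17 of those fits.

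Interferon-stimulated genes were lower in the total line. Of 31 genes 19 fell there, 7 (22.6%) had a negative and 0 a positive interaction (0 positive at an unadjusted p under 0.05), and 12 were not separable. Over all genes 14.6% fell in the total line, and 8.15% had a negative interaction. The RNA sensors Dhx58 (-1.38) and Ddx58 (-0.58), Xaf1 (-0.97) and the guanylate-binding protein Gbp7 (-0.61) were negative. Isg15 (-0.56) fell in the total line and was not separable. The count of negative interactions was 0 on the first scan day and 12 on the second, and it ranged from 6 to 14 when 1 array was left out, the extremes being without total ChREBP-KO replicate 5 and without total-line WT replicate 2. None of the 9 lymphocyte and neutrophil markers was called, and their median was -0.18 in the total line and -0.13 in the interaction, the same sign as the interferon list, whose medians were -0.53 and -0.42. The part of these cells in the interferon values was not tested.

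Circadian genes changed strongly in total ChREBP-KO mice, but the spread among mice of the β line was wide. The clock output factor Dbp read 8.21 to 15.28 (median 11.88) in WT and 8.52 to 14.49 (median 13.58) in ChREBPβ-deficient mice, 9.04 to 10.95 (median 10.38) in WT and 12.22 to 14.08 (median 13.54) in total ChREBP-KO mice. Its total-line change was 3.20, its interaction 2.60 with an SE of 1.37 (adjusted p = 0.215). The total-line groups did not overlap, whereas the β-line mice of both genotypes spread over a wider range than the change itself. The β-line WT mice fell into 2 sets, replicates 1 to 4 at 13.71 to 15.28 and replicates 5 to 8 at 8.21 to 10.05, with no mouse near the median. Of the first set 3 arrays and of the second 1 array were scanned on the first day, and the interaction was 3.49 on the first and 1.39 on the second day. Nr1d1 (1.22), Per3 (1.42), Tef (1.22) and the activator Arntl (-1.38) changed in the total line and were not separable. Among the separable genes were the deubiquitinase Usp2 (2.62, adjusted p = 0.0141), Per1 (1.22, adjusted p = 0.0328), the nuclear receptor Rora (-0.39) and the repressor Bhlhe40 (-2.07). The core loop of 16 genes had 1 positive and 2 negative calls (6.25% and 12.5%), and 11 output factors had 1 and 1 (9.09% each). Over all genes 7.69% were positive and 8.15% negative. Per1 and Rora were called in 23 and 10 of the 31 fits that each left out 1 array, and Nr1d1 and Arntl in 5 and 4. The hour at which each mouse was killed is not in the labels.

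Hormone signalling, transcription factors and proliferation contributed single genes. Over all genes 7.69% were positive and 8.15% negative. The shares were 10.7% and 14.3% for nuclear receptors and liver-enriched factors, 4% and 8% for cell cycle genes, and 3.85% each for collagen and matrix genes. Of 25 genes of the insulin, glucagon and IGF axis 4 were positive, including Igfals (0.72) and Igf1 (0.31), and the glucagon receptor Gcgr was negative (-0.30). Among 28 nuclear receptors and liver-enriched factors 3 were positive and 4 negative, and Rxrg (-1.0) and Cebpb (-0.50) were among the negative ones, the last without a call once replicate 5 of the total ChREBP-KO mice was left out, when the list held 2 negative calls in place of 4. The relatives of MLX gave Mxd1 (1.25) and Mxd4 (0.32), which compete with MYC for MAX, as positive, among 12 genes, and Myc itself changed by -0.72 in the total line and was not separable. Among 25 cell cycle genes Rrm2, the small subunit of ribonucleotide reductase, was far apart from the rest (-3.65), and Mcm3 (-0.57) and Ccnb2 (0.50) were the other calls, kept in 21 and 15 of the 31 fits that each left out 1 array, and 6 genes were positive without total-line WT replicate 2. Mki67 (0.75) and Birc5 (1.11) rose in the total line without being separable. Of 26 collagen and matrix genes Col5a2 (0.67) and Fn1 (-0.33) were called, and the stellate cell markers had their highest summed level, 15.43, in replicate 1 of the total ChREBP-KO mice, against at most 14.76 in the other groups. Without the 3 knockout arrays with raised stellate or bile duct markers Col5a2 kept its call and Fn1 lost it, and the interaction median of the list went from 0.23 to -0.048.

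The β line showed the larger change in 69 of the called genes, all with opposite signs in the lines and 5 of them called in the total line. Tatdn2, a gene with a TatD nuclease domain, changed by 0.36 in the total line and read -0.42 in the β line (interaction 0.77, adjusted p = 0.00153). Anp32a, a nuclear phosphoprotein, had -0.24 and 0.43 (unadjusted p in the β line = 0.000818). The ferric-chelate reductase Frrs1 (0.37), the kinase Cdk16 (0.31) and the helicase Recql4 (-0.51) were of the same kind. No β-line change among these passed the test across all genes.

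The changes that could not be separated differed in how far the β-line interval reached. For 2895 of the 3388 genes the 95% interval of the β-line change left out the total-line change, and 1905 had an unadjusted interaction p under 0.05 without a call across all genes. The count of 2895 takes the total-line change as known and leaves out its error. For the other 493 the β-line interval held the total-line change, in 362 together with 0 and in 131 without 0. Such intervals are not adjusted for the number of genes, and 4.91% of all genes had an unadjusted β-line p under 0.05, so that these counts alone do not show a change in the β line. The median SE of the interaction was 0.113 over all not separable genes.

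The largest of these changes were in genes with a wide spread. Cyp2b9, a P450 induced through CAR, rose by 3.62 in the total line and read 1.28 in the β line, with an interaction of 2.33 (SE 0.92, adjusted p = 0.0859), which was called when ChREBPβ-deficient replicate 5 or total ChREBP-KO replicate 7 was left out. Its relative Cyp2b10 had 3.22 and 1.0 (interaction adjusted p = 0.122). Cyp2b10 and the next gene were called without total ChREBP-KO replicate 7. Apoa4, the chylomicron apolipoprotein, changed by -2.40 in the total line and read -0.67 (interaction adjusted p = 0.0859). S100g, an intracellular calcium-binding protein, rose by 3.43, with replicate 5 of the total ChREBP-KO mice at 14.0 and the other 6 at 6.70 to 9.45, and with 1 ChREBPβ-deficient mouse, also numbered 5, at 9.73 against at most 4.88 in the others. Its interaction was called in 5 of the 31 fits that each left out 1 array, among them the fit without that ChREBPβ-deficient mouse.

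Acute-phase proteins fell in the total line and leaned the same way in the β line. Of 26 genes 13 fell in the total line, 13 changes were not separable, 1 was positive and 2 were negative in the interaction, and the β-line median was -0.27, against -0.0053 over all genes, with 4 members lower and 1 higher at an unadjusted p under 0.05. Saa1, a serum amyloid A protein, read 12.68 to 17.36 (median 14.73) in WT and 12.38 to 14.68 (median 13.33) in ChREBPβ-deficient mice, 13.03 to 17.72 (median 15.94) in WT and 12.14 to 13.71 (median 13.38) in total ChREBP-KO mice. The knockouts of both lines lay in the lower part of their littermates' range or below it, and the groups overlapped. The changes were -2.41 in the total line and -1.59 in the β line (95% interval -2.82 to -0.37), with an interaction of -0.81 (SE 0.86, adjusted p = 0.592). Saa2 (-2.47 and -1.65), Saa3 (-1.51 and -0.76), Orm3 (-1.21 and -0.70) and Lbp (-0.86 and -0.36) had the same order. The near-identical Saa1 and Saa2 can share probe signal. Hamp2, a hepcidin gene, rose by 1.66 in the total line and read 1.40 in the β line. The list's interaction median was -0.59 on the first and 0.077 on the second scan day, and no β-line change of the list passed the test across all genes (the lowest adjusted p in that line beside Mlxipl was 0.182). Kupffer cell and macrophage markers had similar summed levels, with group medians from 14.38 to 14.58. In complement and coagulation 3 were positive and 2 negative of 34 (8.82% and 5.88%), with Pros1 (0.80) and F11 (-0.51) as examples. The acute-phase shares were 3.85% and 7.69%, and the shares over all genes were 7.69% and 8.15%. In the total line 14.6% of all genes fell.

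Another set was chosen for a small β-line p and a change of the same sign in both lines, so that a likeness of the lines in these genes was part of the choice. Fam126a changed by 0.39 in the total line and 0.39 in the β line, with an interaction near 0 and an SE of 0.12, the organic anion transporter gene Slc22a29 by 1.11 and 0.73, the phosphomannomutase Pmm1 by 0.78 and 0.45, and the glutathione transferase Gstt3 by 0.37 and 0.44. These 4 belong to the 8 not separable genes with the smallest β-line p in the same direction, and their β-line changes were not called across all genes (unadjusted p = 6.8e-05, 7.18e-05, 0.000407 and 0.000684). All 4 also differed between the WT littermates of the lines. Over all 3388 not separable genes the β-line interval left out 0 in 209, while 4.91% of all genes had an unadjusted β-line p under 0.05. All 209 had the sign of the total line, which the choice of genes without a called interaction favours.

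**Figure D5:**
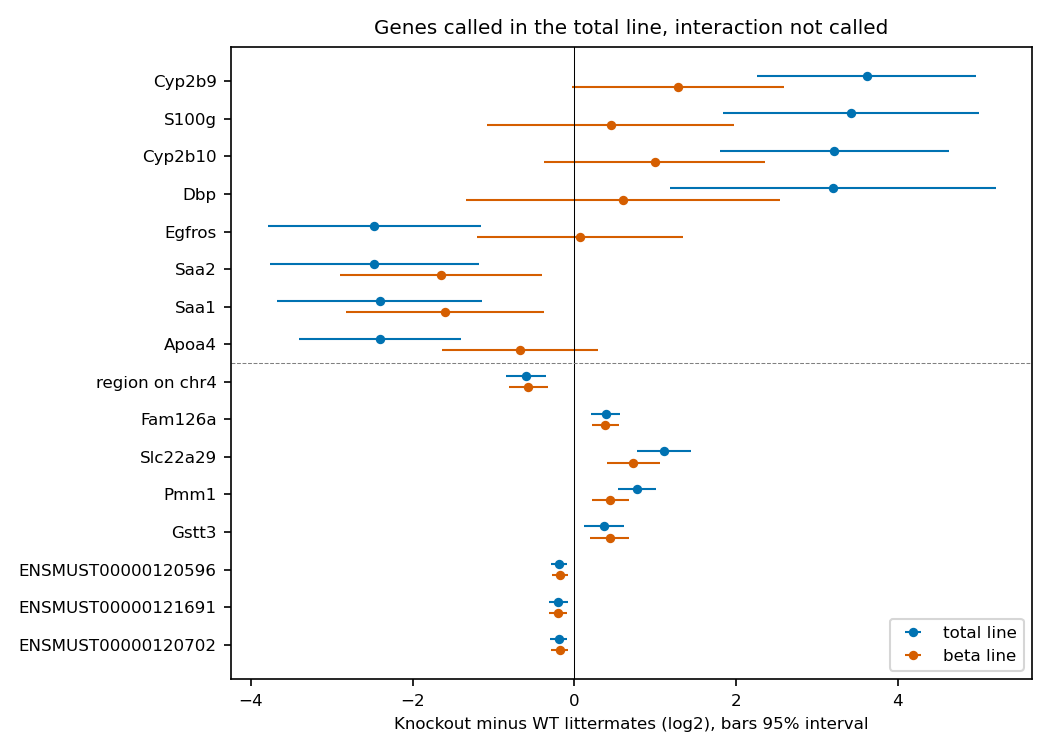
Change relative to WT littermates on the log2 scale with 95% intervals in the total line (blue) and the β line (orange) for 8 not separable genes with the largest total-line change (above the dashed line) and 8 with the smallest β-line p in the same direction (below it). The intervals of the 2 lines overlap in every gene shown, and the β-line intervals leave out 0 for Saa1 and Saa2 above the line and for all 8 genes below it.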

How the data were processed

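Liver RNA of 31 mice was hybridized to one-colour Agilent arrays, 1 array per mouse, and each mouse was placed in its group by its label. The authors deposited spot intensities as read by Agilent Feature Extraction 10.10.1.1, before any scaling, together with log2 values that by their methods are median signals filtered by spot weight, quantile normalized, with the median taken over replicated probes. The log base is not stated, and it was taken from the scanner values, which after the same steps correlated with the deposited values at 0.9999954. The deposited log2 table, with 50 missing values, was used for all results.

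One limma model with the 4 groups was fitted to each of 36057 probes (limma 3.58.1 in R 4.3.3, with lmFit, contrasts.fit and eBayes, files read with the data.table package, version 1.17.8). Every adjusted p is a Benjamini-Hochberg value over all probes from this limma model, with a threshold of 0.05, and intervals are 95% intervals. A single gene is represented by its brightest probe, judged by the mean of the 31 arrays, since 7804 genes have more than 1 probe. Sizes are differences of log2 values. Signals of different probes are not on 1 scale, and levels were not compared between genes. A list's summed level is the log2 of the summed linear signals of its markers, and its score is a mean of centred log2 values. Probe positions are those of the array annotation, build mm9, and exon or UTR positions were not analysed here. Groups of 7 or 8 arrays limit the precision. The labels give no shared litter, so the p-values measure the spread between these mice.

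Named genes were Mlxipl, up to 12 genes of each sign with the largest called interaction for which all total ChREBP-KO mice lay beyond the other 24 mice and every group was well above background on at least 1 array, up to 5 members of each of 36 function lists (843 genes) with the smallest interaction p and the members a list is known for, up to 8 called genes with the larger change in the β line, up to 8 not separable genes with the largest total-line change, and up to 8 with the smallest β-line p in the same direction. Other list members were named after their values were seen. The genes, lists and 9 marker lists were chosen with earlier results of these data known, and counts over a list are descriptions. The lists include one another's genes in 35 cases.

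Alternatives were own processing from the scanner values, scaling to the 75th percentile, normexp background correction (offset 50), a filter on dim probes, slide or scan day as a block, each scan day alone, the replicate number as a block, each line fitted alone, array weights, another moderation, a fold added to the call, and each array left out. Promoters were read from RefSeq (GRCm38.p6), and figures were drawn with matplotlib 3.10.9.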

Additional observations from a re-analysis of the deposited data

Results flagged for a closer look

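The interaction itself is a test of whether the effects of the deletions differ between the lines, and it passed in 2264 genes in the positive and 2283 in the negative direction, counted by any probe. Every gene given above with a called interaction meets that condition. Among them, the genes whose change was larger in the β line had interactions of 0.77 for Tatdn2, 0.37 for Frrs1, 0.45 for the predicted gene Gm38733, -0.41 for the predicted gene Gm10931, 0.31 for Cdk16, -0.66 for Anp32a, -0.51 for Recql4 and -0.58 for a long noncoding RNA region on chromosome 14. Of these 8, Tatdn2 and Recql4 lost the call on the first scan day alone, and Frrs1, Gm38733, Cdk16, Anp32a and the region on either day alone. Frrs1 also lost it with the slide as a block, and the region under scaling to the 75th percentile, as did Gm10931, which further lost it on the second day.

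In 13 of 196 groups of mice examined over 49 genes, 1 mouse stood further from the others than Dixon's test at 95% allows, and chance gives about 1 in 20 groups. Replicate 2 of the total ChREBP-KO mice was lowest for Mlxipl at 13.9 on the log2 scale, with the others at 14.1 to 14.3. S100g had the widest gaps, in ChREBPβ-deficient replicate 5 at 9.73 (others 4.40 to 4.88) and in total ChREBP-KO replicate 5 at 14.0 (others 6.70 to 9.45). Apoa4 was high in total ChREBP-KO replicate 7 at 15.8 (others 11.7 to 13.3), and Cyp2b10 in β-line WT replicate 2 at 10.8 (others 5.31 to 7.12). Among total ChREBP-KO mice, Plcxd1 was high in replicate 6 at 5.77, Frrs1 in replicate 1 at 11.1, Cdk16 in replicate 8 at 7.95, and a long noncoding RNA region on chromosome 4 in replicate 8 at 5.21. Enpp2 was high in total-line WT replicate 2 at 12.7, Recql4 in ChREBPβ-deficient replicate 4 at 7.75, and a probe of unknown target, listed as NAP092820-001, in β-line WT replicate 5 at 11.1. Fam126a was low in β-line WT replicate 2 at 10.02. Leaving out 1 of these mice at a time kept the calls of Mlxipl, Enpp2 and Plcxd1, whereas S100g was called without ChREBPβ-deficient replicate 5 and Apoa4 and Cyp2b10 without total ChREBP-KO replicate 7.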

How the results depend on the processing

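The counts of positive and negative interactions and of not separable genes stayed within 1.5 times their values of 2264, 2283 and 3388 under all settings except 3. On the first scan day alone they were 543, 773 and 2928, on the second 656, 1011 and 1928, with 15 and 16 arrays in place of 31, and with a fold of at least 1.5 added to the call 639, 921 and 388. Leaving out 1 array gave 1960 to 2403 positive and 2064 to 2435 negative interactions and 3040 to 3716 not separable genes. Scaling to the 75th percentile moved the median interaction of all genes from 0.019 to 0.039 and gave 1863 and 2006. The interaction of Mlxipl ranged from -0.69 to -0.61 when 1 array was left out, and was -0.36 on the second scan day (adjusted p = 0.115). The total-line change of Isg15 turned to 0.013 on the first scan day, the only reversal among 10831 values of single genes, and the cause was not tested. These values are called interactions and, for genes without 1, called total-line changes with some β-line changes. Interactions that were not called are left out of that count, and some turned between scan days, such as Fgf21 (-1.62 on the first and 0.57 on the second). Of 173 single interactions, 55 kept their call in all 46 settings and 118 lost it in at least 1. Without the 3 WT arrays with pancreatic enzyme RNA the counts were 2089, 2239 and 2742, and without the 3 knockout arrays with raised stellate or bile duct markers 1813, 1821 and 2364, both settings being chosen after seeing the data. With the replicate number as a block (the replicate block) the counts were 2366, 2341 and 3332. The labels do not say whether the numbers pair mice. The deviations of same-numbered mice in different groups correlated from -0.22 to 0.53 over 45 pairs, with a median of 0.023 and 14 of them over 0.1. Of 31 arrays, 11 correlated best with an array of their own number. What mice of the same number share was not tested, and the main fit does not pair them. The smallest interaction called by a brightest probe was 0.14 on the log2 scale.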

Other observations

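Beside the genes above, 9 genes passed over by the naming rule had no array well above background in 1 group, and the genes given here were chosen after their values were seen. Serpina12, which encodes the adipokine vaspin, was not well above background in any total ChREBP-KO mouse and was in all 8 of their WT littermates, so that it was at least 9.32-fold lower in the knockouts, with an adjusted interaction p of 0.000817 (limma). Ttbk1, a tau tubulin kinase, was at least 6.77-fold lower, and the transcript 4930452B06Rik at least 3.93-fold. In the β line these 3 genes were well above background in all mice of both genotypes. The bounds are those between the mean of the WT littermates and, for each knockout array, the higher of the probe's own signal and the lowest signal called above background.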
